A study of Mus musculus with 27 samples.

Results

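The 10 genes followed here were grouped as regulators of signaling through RAS and the extracellular signal-regulated kinases (ERK). They were measured in the cortex of mice after a transient stroke. They are the Sprouty genes Spry1, Spry2 and Spry4, the Spred genes Spred1 and Spred2, the phosphatase genes Dusp1, Dusp4, Dusp5 and Dusp6, and the small GTPase gene Rasl11b. Rasl11b is related to RAS but is not a known brake of ERK. All 10 were found by symbol in a table of 22340 genes, and all 10 were among the 18087 abundant enough to be tested. The members were chosen from measured values of these same libraries, in which ipsilateral cortex had been compared with contralateral cortex. The difference between the hemispheres is therefore given as a description with no test. Both hemispheres were also compared with sham, and since those tests use the same stroke libraries, they are not independent of the choice.

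Total RNA depleted of ribosomal RNA was sequenced from the cortex of wildtype C57BL6 mice aged 7 to 8 weeks. In the stroke animals a nylon suture closed the right middle cerebral artery for 35 min and was then withdrawn. Ipsilateral cortex, on the side of the closed artery, and contralateral cortex were taken after 3, 6, 12 or 24 h of reperfusion. Sham animals were anesthetized and had their arteries exposed with no suture. This gave 9 groups of 3 libraries: ipsilateral cortex at each of the 4 times, contralateral cortex at each of the 4 times, and sham cortex. The labels give neither a hemisphere nor a time for the sham cortex, nor do they say whether both hemispheres came from the same animal. The 3 replicates of a group came from separate surgery days. All comparisons with sham rest on the same 3 sham libraries.

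ERK is switched on when a receptor at the cell surface activates RAS, which sets off the kinases RAF, MEK and ERK in turn. ERK signaling induces several of its own brakes: Sprouty and Spred proteins act upstream, at the level of RAS and RAF, and dual specificity phosphatases remove the activating phosphates from ERK and related kinases. In neurons the ERK cascade responds to growth factors, to calcium entry and to synaptic activity, and its transcripts of early response include Fos, Egr1 and Arc.

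Total counts per library ran from 26.5 M to 48.8 M, and the rank correlation between any 2 libraries was at least 0.976. The level of a gene is its CPM (its count relative to the normalized library size), and "called" means an adjusted p under 0.05 over all 18087 genes in the quasi-likelihood test of edgeR. The library of contralateral replicate 1 at 3 h stood apart in its counts by GC content, and that of ipsilateral replicate 1 at 24 h had the highest share of mitochondrial ribosomal RNA, 40.4%. All 6 markers of cortical excitatory neurons were detected in every group. Their summed level was 1430 to 2240 CPM over the ipsilateral groups, 2190 to 2670 CPM over the contralateral groups and 2000 to 2370 CPM in sham cortex. In these bulk samples fewer cells of a type and less RNA per cell cannot be told apart.

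Per kilobase of annotated exon, Spred1 had the highest sham level of the 10 genes, 30.5 CPM per kb, followed by Dusp6 with 25.7, Spry2 with 15.1, Dusp1 with 11.4 and Spred2 with 10.7 CPM per kb. Below them stood Rasl11b with 9.13, Dusp5 with 6.60, Dusp4 with 4.56, Spry4 with 3.45 and Spry1 with 2.03 CPM per kb. The sham libraries of 5 neighbouring pairs in this order overlapped: Spred1 and Dusp6, Spry2 and Dusp1, Dusp1 and Spred2, Rasl11b and Dusp5, and Dusp5 and Dusp4.

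The members were called on both sides of the brain, mostly as higher than sham in ipsilateral cortex and only as lower than sham in contralateral cortex. In ipsilateral cortex at 6 h, Rasl11b, Spry1, Spry2, Dusp6 and Spry4 were called higher than sham, 5 of 10 members, where 5.03% of all genes were called higher, and no member was called lower, where 1.09% of all genes were. The members called lower in contralateral cortex were Spry4 at 3 h, where 0.0111% of all genes were called lower, Spry4 and Dusp6 at 6 h, where 0.0332% were, and Spry4, Dusp1, Dusp5 and Dusp6 at 12 h, where 0.144% were. At 12 h 0.0940% of all genes were called higher in contralateral cortex.

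The earlier and later ipsilateral times had fewer calls among the members. At 3 h Rasl11b was called higher, where 0.227% of all genes were, and Spry4 was called lower, as were 0.0166% of all genes. At 12 h Spry2, Rasl11b and Spred1 were called higher, where 6.58% of all genes were, and Dusp1 was called lower, where 3.72% were. At 24 h no member was called in ipsilateral cortex by edgeR, although 11.3% of all genes were called higher and 10.9% lower. At an unadjusted p under 0.05, Dusp1 and Dusp6 would pass in ipsilateral cortex at 24 h, as would 6361 of all 18087 genes. DESeq2 called Dusp1 there, among 4377 genes. Both Dusp1 and Dusp6 were called lower with abundant RNAs left out, among 4024 genes, and without sham replicate 2, among 2716 genes. Dusp6 was also called without ipsilateral replicate 2 of that time. In contralateral cortex at 24 h no member was called either, beside 0.0276% of all genes called higher and 0.0829% lower. Of the members Spry4 alone had an unadjusted p under 0.05 there, where 1171 of all genes had. DESeq2 called no member there, and 64 genes in all.

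**Figure D1:**
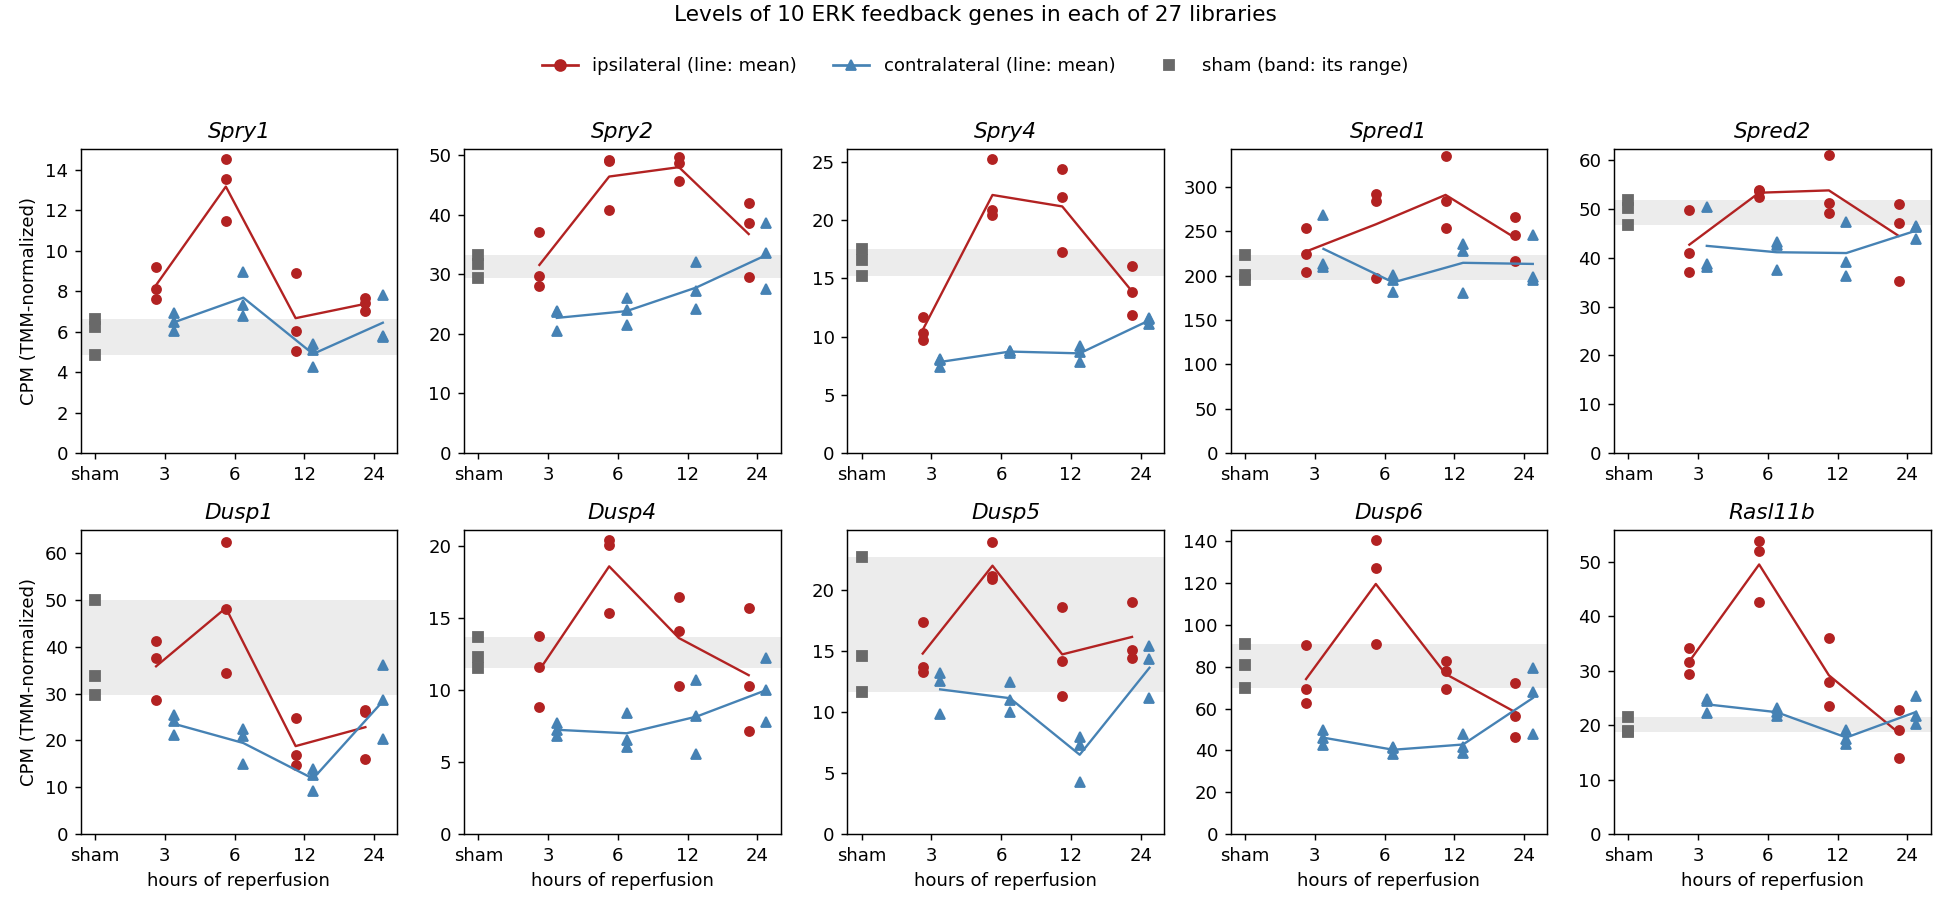
Normalized level (CPM, linear axis from 0) of each of the 10 genes against hours of reperfusion. Red circles are ipsilateral, blue triangles contralateral and grey squares sham libraries (3 per group), lines join group means and the grey band is the range of the sham libraries. Ipsilateral Spry1, Spry4, Dusp6 and Rasl11b had their highest mean at 6 h, and all contralateral Spry4 libraries lay below the sham band at every time.

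Spry4 is a Sprouty protein that limits RAS activation after growth factor stimulation. Its gene lies on the minus strand of mouse chromosome 18 (mm10, chr18:38586247-38601415). In contralateral cortex its level was 8.05, 8.02 and 7.39 CPM at 3 h, 8.76, 8.62 and 8.76 CPM at 6 h, 7.78, 9.22 and 8.68 CPM at 12 h and 11.6, 11.1 and 11.5 CPM at 24 h, against 16.5, 15.2 and 17.5 CPM in sham cortex. All 12 contralateral libraries were lower than all 3 sham libraries. The log2 fold change of contralateral against sham cortex was -1.07 ± 0.13 (SE, adjusted p = 0.000203) at 3 h, -0.91 ± 0.13 (adjusted p = 0.00313) at 6 h and -0.94 ± 0.13 (adjusted p = 0.00102) at 12 h. At 24 h it was -0.52 ± 0.13 (adjusted p = 0.151), which was not called. At 3 h and at 6 h Spry4 had the smallest p of all genes tested in contralateral cortex.

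In contralateral cortex at 3 h only 2 genes were called, Spry4 and the circadian clock gene Per2, whose log2 fold change against sham was -1.15; Per2 was named after its value was seen. The Spry4 call at 3 h held without any single library, and without contralateral replicate 1, the library that stood apart, the log2 fold change was -1.09. It did not hold when only the contralateral 3 h and sham libraries were fitted (adjusted p = 0.226), with the same fold change of -1.07. The call at 6 h ended without sham replicate 3 (adjusted p = 0.0549) or without contralateral replicate 2 of that time. That at 12 h held without any single library.

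In ipsilateral cortex Spry4 reached 9.70, 11.7 and 10.3 CPM at 3 h, 20.8, 25.2 and 20.4 CPM at 6 h, 24.3, 17.2 and 22.0 CPM at 12 h and 13.8, 16.0 and 11.8 CPM at 24 h. All 3 ipsilateral libraries were below sham at 3 h and all 3 were above it at 6 h, while the groups overlapped at 12 h and 24 h. Ipsilateral Spry4 had a log2 fold change against sham of -0.63 ± 0.13 (adjusted p = 0.0337) at 3 h and 0.43 ± 0.13 (adjusted p = 0.0428) at 6 h. At 12 h it was 0.37 ± 0.13 (adjusted p = 0.0672), which was not called. It was called there by DESeq2 (adjusted p = 0.0400), without both libraries that stood apart (adjusted p = 0.0436), when only the 2 compared groups were fitted (adjusted p = 0.0468), and without ipsilateral replicate 2 of that time (adjusted p = 0.0166). The calls at 3 h and 6 h were each lost in 5 of the 6 omissions of a single library of those compared. The exception was ipsilateral replicate 2 for the 3 h call and ipsilateral replicate 3 for the 6 h call. The 6 h call was also lost with no filter on low counts (adjusted p = 0.0570).

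Spry4 also differed between the 4 ipsilateral times (adjusted p = 1.84e-05, edgeR F-test over times). The 6 h mean was 22.2 CPM and the 3 h mean 10.6 CPM, a ratio of 2.10. The contralateral means of 7.82 CPM at 3 h, 8.71 CPM at 6 h, 8.56 CPM at 12 h and 11.4 CPM at 24 h did not pass the same test (adjusted p = 0.108).

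Spry1, a Sprouty gene of lower level, lies on the plus strand (chr3:37639947-37644598). At 6 h it had 13.5, 14.5 and 11.5 CPM in ipsilateral cortex, 8.94, 6.78 and 7.33 CPM in contralateral cortex and 6.62, 4.87 and 6.24 CPM in sham cortex. All ipsilateral libraries were higher than all others, and the contralateral libraries also lay above sham. Ipsilateral Spry1 had a log2 fold change against sham of 1.16 ± 0.18 (adjusted p = 0.000144), a 2.23-fold higher level, and this call held without any single library. That of contralateral against sham cortex was 0.38 ± 0.18 (adjusted p = 1). At 12 h ipsilateral Spry1 had 5.06, 6.03 and 8.92 CPM, which overlapped sham, and its variation over the ipsilateral times was called (adjusted p = 0.00136).

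Spry2 (chr14:105891947-105896819, minus strand) was called higher in ipsilateral cortex at 6 h and again at 12 h. At 6 h it had 49.1, 49.3 and 40.9 CPM in ipsilateral cortex, 21.4, 26.0 and 24.1 CPM in contralateral cortex and 33.3, 29.3 and 31.7 CPM in sham cortex. At 12 h the levels were 48.8, 45.6 and 49.7 CPM in ipsilateral cortex and 24.1, 32.1 and 27.2 CPM in contralateral cortex. Ipsilateral Spry2 was above every sham library at both times, and contralateral Spry2 was below every sham library at 6 h but not at 12 h. The log2 fold change of ipsilateral against sham cortex was 0.56 ± 0.14 (adjusted p = 0.0149) at 6 h and 0.61 ± 0.14 (adjusted p = 0.00536) at 12 h. The 12 h call held without any single library, whereas the 6 h call was lost without sham replicate 2, sham replicate 3, or ipsilateral replicate 1 or 2 of that time. Contralateral Spry2 was not called at 3 h, where its log2 fold change was -0.47 (adjusted p = 0.360), nor at 6 h, where it was -0.40 (adjusted p = 0.889). Its variation over the ipsilateral times was called (adjusted p = 0.00965), with means of 31.6 CPM at 3 h and 48.0 CPM at 12 h.

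In ipsilateral cortex at 6 h the log2 fold change against sham was 0.32 ± 0.14 for Spred1 and 0.11 ± 0.14 for Spred2. The smallest of a Sprouty gene was 0.43 ± 0.13, for Spry4, and a difference between the 2 families was not tested. Spred proteins bind RAS and recruit neurofibromin, which turns RAS off. Spred1 (chr2:117121374-117182279, plus strand) had 335, 284 and 253 CPM in ipsilateral cortex at 12 h, 180.0, 235 and 228 CPM in contralateral cortex and 200.6, 224 and 196 CPM in sham cortex. The ipsilateral libraries were above all others, while contralateral and sham libraries overlapped. Ipsilateral Spred1 had a log2 fold change against sham of 0.49 ± 0.14 (adjusted p = 0.0249). This call ended without sham replicate 1, sham replicate 3 or ipsilateral replicate 1 of that time. No other comparison of Spred1 with sham was called, and its log2 fold changes there ran from -0.10 to 0.32. The 0.32 in ipsilateral cortex at 6 h was called without ipsilateral replicate 3 of that time (adjusted p = 0.0398).

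Spred2 (chr11:19924375-20024026, plus strand) was called in no comparison. At 6 h it nevertheless had 52.6, 53.6 and 53.9 CPM in ipsilateral cortex, 37.6, 43.2 and 42.7 CPM in contralateral cortex and 51.8, 46.7 and 50.2 CPM in sham cortex. The 3 groups did not overlap, although the ipsilateral and sham libraries lay close together. Its log2 fold changes against sham at 6 h were 0.11 ± 0.14 in ipsilateral cortex (adjusted p = 0.712) and -0.27 ± 0.14 in contralateral cortex (adjusted p = 1). Neither Spred gene varied over the ipsilateral times by the test, with adjusted p = 0.266 for Spred1 and adjusted p = 0.148 for Spred2.

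Dusp6, a phosphatase in the cytoplasm that acts on ERK, was the most abundant of the 4 phosphatase genes per exon length. It lies on the plus strand at chr10:99263231-99267489. At 6 h it had 140.3, 127 and 91.0 CPM in ipsilateral cortex, 41.5, 41.2 and 38.4 CPM in contralateral cortex and 91.1, 69.8 and 81.0 CPM in sham cortex. The contralateral libraries were below all sham libraries, and ipsilateral replicate 3 fell within the sham range. The log2 fold change was 0.57 ± 0.17 in ipsilateral against sham cortex (adjusted p = 0.0491) and -0.998 ± 0.18 in contralateral against sham cortex (adjusted p = 0.0262).

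Both 6 h calls of Dusp6 were near the threshold. The ipsilateral one was lost with the surgery day as a replicate block (adjusted p = 0.0533), with no filter on low counts (adjusted p = 0.0533) and without any single library other than ipsilateral replicate 3 of that time. The contralateral one was lost without any single library other than sham replicate 2, with log2 fold changes from -1.02 to -0.90 in those 5 omissions. At 12 h contralateral Dusp6 had 38.7, 48.1 and 41.7 CPM, again below all sham libraries, with a log2 fold change of -0.91 ± 0.18 (adjusted p = 0.0146). That call ended without sham replicate 1, sham replicate 3, or contralateral replicate 1 or 3 of that time. At 3 h contralateral Dusp6 had 49.9, 42.5 and 45.9 CPM, also below all sham libraries, but its log2 fold change of -0.81 ± 0.18 was not called by edgeR (adjusted p = 0.118); DESeq2 called it (adjusted p = 0.0175). Over the ipsilateral times Dusp6 varied (adjusted p = 0.00137), with a mean of 119.5 CPM at 6 h and 58.3 CPM at 24 h.

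Dusp1 and Dusp5 encode nuclear phosphatases. Dusp1 is an early response gene whose product acts mainly on the kinases p38 and JNK, and Dusp5 acts on ERK. The upstream sequences of both genes are shown because both held letters of the cAMP response element, a promoter element known from activity-regulated genes. Dusp5 also held letters of another such element, the serum response element. Spred2 held the core of the cAMP response element as well, and its sequence is not shown. They come from RefSeq promoters of build GRCm38.p6, which hold 250 bases before to 50 after the start site. An entry was found for 8 of the 10 members; Spry4 and Dusp4 were not among them. Capitals mark TGACGTCA, the full cAMP response element, and TGACG, its core, on either strand. In Dusp5 they also mark an adjoining pair of CArG boxes, the core of the serum response element. The Dusp1 stretch, chr17:26508563-26508672 on the minus strand, runs from -200 to -91 relative to the start site. It lies inside the annotated span of Dusp1 but in no annotated exon. The Dusp5 stretch, chr19:53528995-53529104 on the plus strand, runs from -150 to -41, and an exon of another transcript is annotated there on the opposite strand.
Dusp1: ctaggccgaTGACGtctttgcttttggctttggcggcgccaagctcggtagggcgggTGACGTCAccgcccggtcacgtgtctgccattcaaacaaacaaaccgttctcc
Dusp5: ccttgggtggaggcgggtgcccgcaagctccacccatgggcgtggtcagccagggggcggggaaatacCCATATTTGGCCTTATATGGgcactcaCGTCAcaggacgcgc

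Of the 8 members with an entry, TGACGTCA was found in Dusp1 alone and in 1.79% of all 32851 promoters of the same length. TGACG was found in Spred2, Dusp1 and Dusp5 and in 20.8% of all promoters. In Dusp1 it lies within the full element, at -143 to -136, and also apart from it, at -191 to -187. The CArG box was found in Dusp5 alone and in 1.63% of all promoters, at -82 to -73 and at -72 to -63, and its search was added after the promoters had been looked at. CCGGAA, a motif of ETS factors, was found in Spry2 and Rasl11b and in 14.9% of all promoters. TGANTCA, the motif of AP-1, was in 7.81% and GCGTGGGCG, that of EGR factors, in 0.612% of all promoters, and neither was in a member. All motifs were searched on both strands. These matches describe letters in the window and are not evidence of binding.

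Dusp1 (chr17:26505590-26562128, minus strand) had its lowest level at 12 h on both sides. It was 16.8, 14.8 and 24.7 CPM in ipsilateral cortex and 13.9, 12.6 and 9.13 CPM in contralateral cortex, against 50.0, 29.7 and 33.7 CPM in sham cortex. All 6 stroke libraries were below all sham libraries at that time, and sham replicate 1 was the highest of the sham libraries. At 12 h the log2 fold change was -1.01 ± 0.27 in ipsilateral against sham cortex (adjusted p = 0.0176) and -1.67 ± 0.27 in contralateral against sham cortex (adjusted p = 0.00817). The contralateral change is a 3.19-fold lower level. Without sham replicate 1 neither was called, with log2 fold changes of -0.75 in ipsilateral and -1.42 in contralateral cortex. The ipsilateral call also ended without ipsilateral replicate 1 or 2 of 12 h and when only the 2 compared groups were fitted (adjusted p = 0.0673), and the contralateral one without contralateral replicate 3 of 12 h.

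At 6 h Dusp1 had 62.3, 48.1 and 34.4 CPM in ipsilateral cortex and 21.0, 22.4 and 15.0 CPM in contralateral cortex. The ipsilateral libraries overlapped sham and the contralateral libraries lay below all sham libraries, but neither was called, with adjusted p = 0.481 and a log2 fold change of 0.35 on the ipsilateral side and adjusted p = 0.532 and -0.96 on the contralateral side. At 24 h ipsilateral Dusp1 had 26.0, 26.5 and 16.0 CPM, below all sham libraries, and its log2 fold change was -0.73 ± 0.26 (adjusted p = 0.0515); with the surgery day as a replicate block it was called (adjusted p = 0.0295). Variation over the ipsilateral times was called (adjusted p = 0.00435). Variation over the contralateral times was not called (adjusted p = 0.0805), except with the replicate block (adjusted p = 0.0446). Exons of Dusp1 overlap Ergic1 on the opposite strand, and with no strand setting given the reads of the pair cannot be told apart. The same limit holds for Spry1 and Dusp5, whose exons overlap Gm42922 and AC137853.2 on the opposite strand. Neither of these was among the genes counted. The log2 fold change of Ergic1 at 12 h was -0.07 in ipsilateral and -0.09 in contralateral cortex, with no call in either, and at 24 h Ergic1 was called lower in ipsilateral cortex, at -0.27 (adjusted p = 0.0413).

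Dusp5 (chr19:53529109-53542431, plus strand) had 14.2, 11.4 and 18.6 CPM in ipsilateral cortex, 4.26, 7.30 and 7.99 CPM in contralateral cortex and 22.7, 11.7 and 14.6 CPM in sham cortex at 12 h. The contralateral libraries were below all others, and the ipsilateral libraries overlapped sham. The log2 fold change was -0.15 ± 0.22 in ipsilateral against sham cortex (adjusted p = 0.731) and -1.32 ± 0.23 in contralateral against sham cortex (adjusted p = 0.00786). The contralateral call ended without sham replicate 1, where the log2 fold change was -1.01, and when only the 2 compared groups were fitted. At 6 h the ipsilateral libraries had 20.9, 24.0 and 21.1 CPM and the contralateral libraries 11.0, 12.4 and 9.98 CPM. Neither group was separate from sham at 6 h, since sham replicate 1 was high and sham replicate 2 was low.

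Dusp4, a nuclear phosphatase of ERK and related kinases, lies on the plus strand (chr8:34807297-34819894). It was called against sham in no comparison of edgeR. Its 6 h levels were 20.1, 20.4 and 15.3 CPM in ipsilateral cortex, 8.44, 6.55 and 6.03 CPM in contralateral cortex and 13.7, 11.6 and 12.3 CPM in sham cortex. The 3 groups did not overlap, with ipsilateral libraries above and contralateral libraries below all sham libraries. The log2 fold change at 6 h was 0.57 ± 0.24 in ipsilateral cortex (adjusted p = 0.163) and -0.83 ± 0.24 in contralateral cortex (adjusted p = 0.582). In contralateral cortex Dusp4 was also below all sham libraries at 3 h, with 7.22, 6.79 and 7.73 CPM, and at 12 h, with 5.57, 10.7 and 8.21 CPM. When only the 2 compared groups were fitted, Dusp4 was called at 6 h on each side.

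Rasl11b (chr5:74195286-74199481, plus strand) encodes a small GTPase related to RAS and is not a known brake of ERK. It had 31.5, 29.4 and 34.2 CPM in ipsilateral cortex at 3 h, 53.8, 51.9 and 42.7 CPM at 6 h, 28.0, 23.5 and 36.0 CPM at 12 h and 14.0, 19.0 and 22.8 CPM at 24 h, against 21.5, 19.0 and 18.7 CPM in sham cortex. The ipsilateral libraries were above all sham libraries at 3, 6 and 12 h and overlapped them at 24 h. Ipsilateral Rasl11b had a log2 fold change against sham of 0.68 ± 0.15 (adjusted p = 0.0436) at 3 h, 1.33 ± 0.15 (adjusted p = 2.45e-06) at 6 h and 0.56 ± 0.15 (adjusted p = 0.0141) at 12 h. The 6 h change is a 2.51-fold higher level and ranked 8 among all genes by p. It held without any single library.

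The 3 h call of Rasl11b was lost without any single one of the 6 libraries compared, and the 12 h call without sham replicate 2, sham replicate 3 or ipsilateral replicate 3 of that time. Contralateral Rasl11b had 22.4, 23.2 and 21.6 CPM at 6 h, just above all sham libraries, with a log2 fold change of 0.18 ± 0.15 (adjusted p = 1). Its contralateral mean was below sham at 12 h alone, with a log2 fold change of -0.15 ± 0.15 (adjusted p = 0.955). It varied over the ipsilateral times (adjusted p = 1.65e-05).

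**Figure D2:**
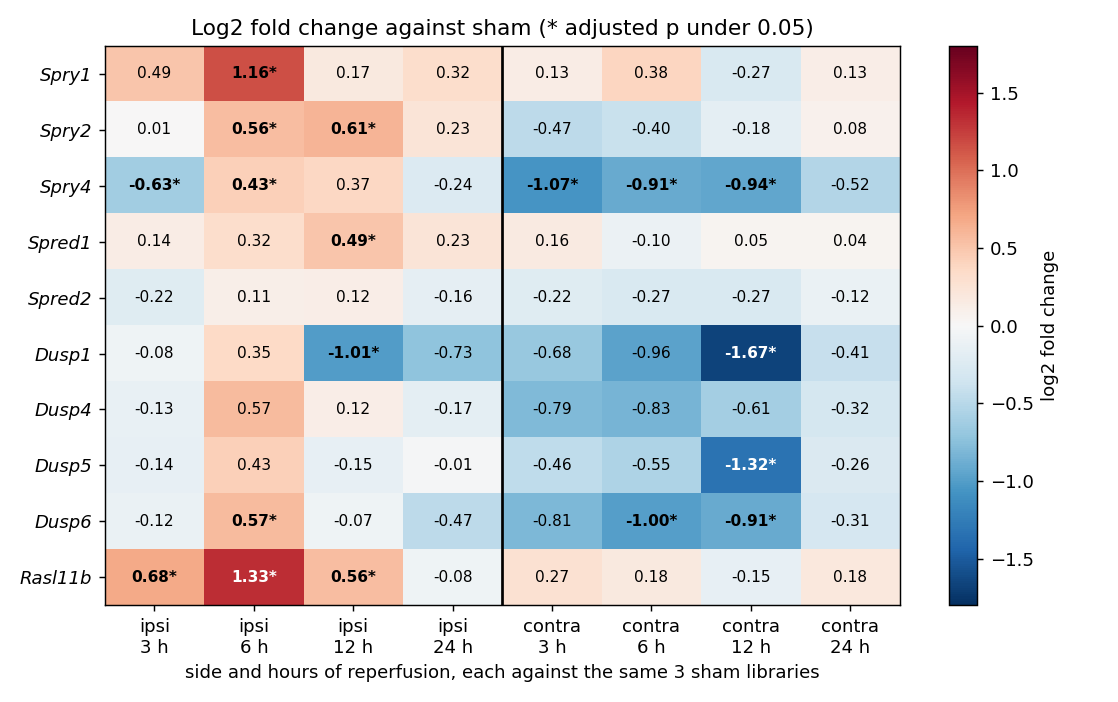
Log2 fold change against sham of each of the 10 genes, in ipsilateral cortex (left of the black line) and contralateral cortex (right) at 3, 6, 12 and 24 h. Red is higher and blue lower than sham, and bold values with an asterisk had an adjusted p under 0.05. Asterisks in the contralateral columns stand on negative values only, from -1.67 to -0.91, and neither 24 h column has one.

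Over the 4 ipsilateral times 6 of the 10 members varied, where 13.0% of all genes did. These were Spry1, Spry2, Spry4, Dusp1, Dusp6 and Rasl11b, and the 6 h mean was the highest for all of them but Spry2. The other 4 had adjusted p = 0.0797 for Dusp4, 0.140 for Dusp5 and the values given above for the Spred genes. DESeq2 called Dusp4 and Dusp5 over the ipsilateral times as well. Over the 4 contralateral times no member varied in the edgeR test, where 0.918% of all genes did. The lowest adjusted p of a member there was 0.057 for Dusp5, followed by 0.0805 for Dusp1, 0.102 for Dusp6, 0.108 for Spry4 and 0.111 for Spry2. The likelihood ratio test of DESeq2 called 4 members (Spry4, Dusp1, Dusp5 and Dusp6), among 394 genes.

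The difference between the hemispheres, which chose the members, is given as levels with no test. At 6 h all ipsilateral libraries were above all contralateral libraries for 9 members, every one but Spred1, and for 16.9% of all genes. At 3 h that held for 8 members and 6.13% of all genes, at 12 h for 8 members and 16.9%, and at 24 h for Spry4 alone and 16.8%. The largest log2 differences at 6 h were 1.57 for Dusp6, 1.41 for Dusp4, 1.35 for Spry4, 1.31 for Dusp1 and 1.14 for Rasl11b.

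The share of this difference on each side of sham varied between members. For Dusp6 the 1.57 at 6 h is made up of 0.57 in ipsilateral and -0.998 in contralateral cortex, each against sham, and for Spry4 the 1.35 is made up of 0.43 in ipsilateral and -0.91 in contralateral cortex. For Rasl11b ipsilateral cortex was 1.33 above sham and contralateral cortex 0.18 above it, so that the ipsilateral side made up the whole difference. At 12 h the difference of Dusp5, 1.18, is made up of -0.15 in ipsilateral and -1.32 in contralateral cortex. The ipsilateral Dusp5 libraries overlapped sham and were not called. Both hemispheres stood below sham for Dusp1 at 12 h. At 6 h all ipsilateral libraries were above and all contralateral libraries below all sham libraries for Spry2, Spry4, Spred2 and Dusp4, and for 1.18% of all genes.

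At 24 h the hemispheres lay close together again. The log2 differences of the 10 members ran from -0.32 for Dusp1 to 0.28 for Spry4. Dusp6 had 46.3, 72.3 and 56.4 CPM in ipsilateral cortex and 67.9, 79.5 and 47.7 CPM in contralateral cortex, which overlapped.

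Other genes of the pathway were counted in lists. Their counts in ipsilateral cortex stand beside 0.227% of all genes called higher and 0.0166% lower at 3 h, and 5.03% higher and 1.09% lower at 6 h. At 12 h the shares there were 6.58% higher and 3.72% lower, and at 24 h 11.3% higher and 10.9% lower. In contralateral cortex 0.0332% of all genes were called lower at 6 h, 0.144% at 12 h and 0.0829% at 24 h. A count near these shares is no result about a list. Among the 6 other MAP kinase phosphatases, 1 was called higher than sham in ipsilateral cortex at 3 h and 3 were at each later time, with none called lower and none called in contralateral cortex. The list's median log2 fold change in ipsilateral cortex was 1.02 at 6 h, where the median of all genes was -0.01. Dusp2, a nuclear phosphatase induced in stimulated cells, had 4.89 ± 0.56 CPM in ipsilateral cortex at 6 h and 0.765 ± 0.22 CPM in sham cortex (SD, n = 3 each), with an adjusted p of 1.17e-05. Dusp16, a phosphatase of JNK and p38, had 27.8 ± 5.7 CPM in ipsilateral cortex at 6 h and 11.7 ± 1.7 CPM in sham cortex (adjusted p = 2.16e-05). Both were still called at 24 h, with log2 fold changes of 1.52 for Dusp2 and 0.99 for Dusp16, as was Dusp10 with 1.06. Dusp9, with 1.28 CPM in ipsilateral and 0.471 CPM in sham cortex, was called at 6 h. No member was called at 24 h; that the lists differ from the members was not tested.

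Transcripts known as ERK targets were called on both sides. Of 20 tested, 8 were called higher in ipsilateral cortex at 6 h and none lower, with a list median of 0.74 on the log2 scale beside -0.01 for all genes. At 3, 12 and 24 h the counts were 1, 4 and 7 higher and 0, 1 and 3 lower. Over the ipsilateral times 11 of the 20 varied, and over the contralateral times none did by edgeR. Klf6, a zinc finger factor, had 86.2 ± 25 CPM in ipsilateral cortex at 6 h and 38.9 ± 1.2 CPM in sham cortex, and the early gene Ier2 had 9.39 ± 1.1 CPM and 4.13 ± 1.2 CPM. The survival gene Mcl1 and Phlda1 were called at 6 h too, with log2 fold changes of 0.53 and 0.86. At 24 h Mcl1, the urokinase receptor gene Plaur, the transcription factor gene Maff and Myc had the smallest p of the list, with log2 fold changes of 0.66, 2.98, 1.58 and 1.49.

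In contralateral cortex this list had no gene called higher at any time. It had 2 called lower at both 6 h and 12 h, where 0.0332% and 0.144% of all genes were. Arc, whose product acts at synapses, had 392 ± 99 CPM in ipsilateral cortex at 6 h, 54.0 ± 13 CPM in contralateral cortex and 233 ± 41 CPM in sham cortex. It was not called in ipsilateral cortex (adjusted p = 0.228). Its log2 fold change in contralateral against sham cortex was -2.11 ± 0.36 at 6 h (adjusted p = 0.0414) and -2.30 ± 0.37 at 12 h (adjusted p = 0.00896). The early factor Egr1 had 161 ± 8.6 CPM in ipsilateral cortex at 6 h, 30.5 ± 5.0 CPM in contralateral cortex and 97.0 ± 23 CPM in sham cortex, and its contralateral log2 fold change was -1.67 ± 0.26 (adjusted p = 0.0225). Ier2 was the other gene called at 12 h, at -1.50 ± 0.30 (adjusted p = 0.0197). These 3 genes were named after their values were seen. The other genes called in contralateral cortex at 6 h were Rnd3 and 1700016P03Rik, beside Spry4, Dusp6, Egr1 and Arc.

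**Figure D3:**
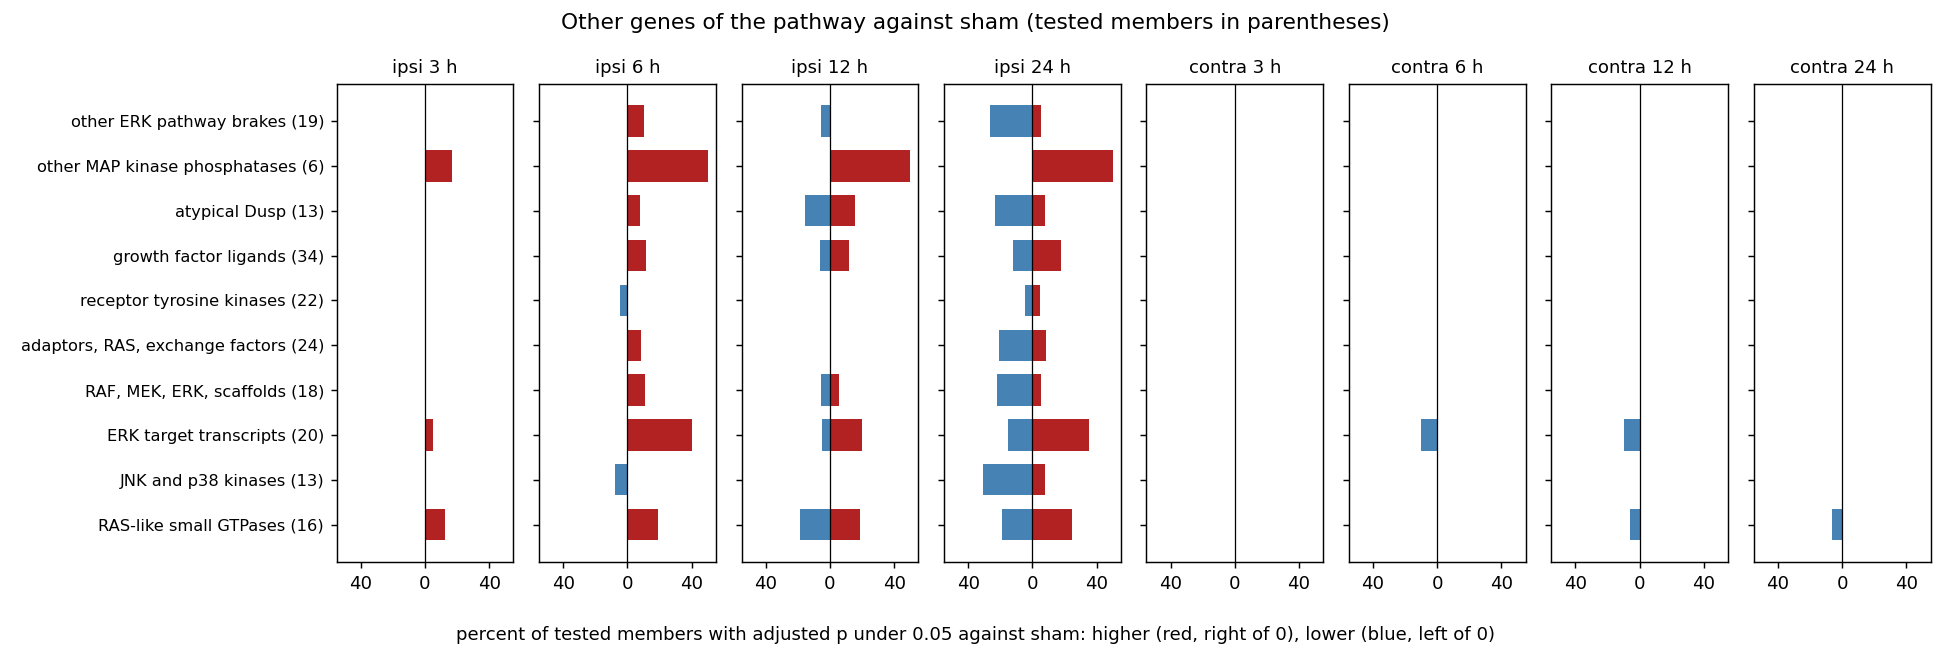
Percent of the tested genes of each of 10 pathway lists with an adjusted p under 0.05 against sham, in ipsilateral and then contralateral cortex at 3, 6, 12 and 24 h. Red bars to the right of 0 are genes called higher and blue bars to the left genes called lower; the number of genes tested stands in parentheses. Of the 6 other MAP kinase phosphatases 3 were called higher at 6, 12 and 24 h in ipsilateral cortex, and of these lists only ERK targets and RAS-like GTPases have contralateral bars.

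The core of the cascade was counted in 3 lists with 64 tested genes in all. In ipsilateral cortex 6.25% of the 64 were called higher and 1.56% lower at 6 h, and 6.25% higher and 15.6% lower at 24 h, near the shares of all genes at 6 h. At 12 h 1.56% were called in each direction. Of 22 receptor tyrosine kinases 1 was called lower at 6 h (Pdgfra, a marker of oligodendrocyte precursors), and at 24 h 1 was called higher (Flt4) and 1 lower (the BDNF receptor gene Ntrk2). Of 24 adaptors, RAS genes and exchange factors, Gab2 and Rras2 were called higher at 6 h, and at 24 h 2 were called higher (Shc1 and Rras2) and 5 lower, among them Rasgrp1 and Hras. Of 18 RAF, MEK and ERK kinases and scaffolds, Mapkapk2 and Mknk2, kinases downstream of p38 and ERK, were called higher at 6 h. At 12 h 1 gene of that list was called higher and 1 lower, and at 24 h 1 was higher, Mapkapk2, and 4 were lower, among them Map2k1, which encodes MEK1, with 136 ± 12 CPM in ipsilateral and 199.9 ± 15 CPM in sham cortex (adjusted p = 0.000294). None of these 3 lists had a call in contralateral cortex or at 3 h in ipsilateral cortex.

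Of 34 growth factor ligands, 4 were called higher at 6 h and none lower, 4 higher and 2 lower at 12 h, and 6 higher and 4 lower at 24 h. At 6 h that is 11.8% higher, and at 24 h 17.6% higher and 11.8% lower, the last near the 10.9% of all genes. The EGF receptor ligand Hbegf had 20.2 ± 3.5 CPM in ipsilateral cortex at 6 h and 24.8 ± 4.5 CPM at 24 h, against 8.68 ± 0.82 CPM in sham cortex, with an adjusted p of 8.39e-06 at 6 h and 2.17e-07 at 24 h. Nrg2, Pdgfb and Vegfa were the others called at 6 h, with log2 fold changes of 0.94, 0.69 and 0.57. Btc and Egf, also ligands of the EGF receptor, were called higher at 24 h and Fgf13, an intracellular relative of the growth factors, lower, at -0.74. None of the ligands was called at 3 h or in contralateral cortex.

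Of 19 other brakes of the pathway, Errfi1, an inhibitor of the EGF receptor, and Lrig1 were called higher at 6 h, at 0.75 and 0.57 on the log2 scale. None was called at 3 h, 1 was lower at 12 h, and at 24 h 1 was higher and 5 were lower, among them Pebp1, Ptprr and Rasal1. Of 13 atypical dual specificity phosphatases, Dusp14 was called higher at 6 h (0.82), 2 genes were higher and 2 lower at 12 h, and at 24 h Dusp11 was higher and Dusp3, Dusp15 and Dusp26 were lower. Neither of these lists had a call in contralateral cortex.

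Of 13 JNK and p38 kinases Map2k6 was called lower at 6 h, at -0.47 on the log2 scale. None was called at 3 h, at 12 h or in contralateral cortex, and at 24 h in ipsilateral cortex Map2k3 was called higher and 4 genes lower, among them Map2k6, Map3k5 and Mapk11. Of 16 RAS-like small GTPases, the list nearest to Rasl11b, the counts called higher in ipsilateral cortex were 2, 3, 3 and 4 at 3, 6, 12 and 24 h, and 3 were called lower at both 12 h and 24 h. Rrad had 7.82 ± 0.29 CPM in ipsilateral cortex at 6 h and 0.832 ± 0.17 CPM in sham cortex (adjusted p = 9.78e-07). Gem had 7.91 ± 2.6 CPM and 1.02 ± 0.15 CPM. Rhoq was the third gene called at 6 h. Rasl10a was called lower in contralateral cortex at 12 h and 24 h and in ipsilateral cortex at 24 h, where its log2 fold change was -1.31; Diras2 was lower at 24 h as well.

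Some cell type markers were called against sham as well. Of all genes, 5.03% were called higher and 1.09% lower in ipsilateral cortex at 6 h, and 6.58% higher and 3.72% lower at 12 h. At 24 h the shares there were 11.3% higher and 10.9% lower. In contralateral cortex 0.0940% of all genes were called higher at 12 h and 0.0276% at 24 h. A marker count near these shares is no result about a cell type. Summed cortical excitatory neuron markers were 1880 to 1990 CPM in ipsilateral cortex at 6 h. They were 2190 to 2480 CPM in contralateral cortex at 6 h and 2000 to 2370 CPM in sham cortex. The median log2 fold change of the 6 in ipsilateral against sham cortex at 6 h was -0.03, beside -0.01 for all genes. In ipsilateral cortex none of the 6 was called at 6 h, 1 was called lower at 12 h and 3 at 24 h. Resting microglia markers summed to 105 to 116 CPM in ipsilateral cortex at 6 h, 121 to 149 CPM in contralateral cortex and 131 to 161 CPM in sham cortex, with 2 of 6 called lower in ipsilateral cortex at 6 h and at 12 h, 3 at 24 h and none in contralateral cortex. Markers of infiltrating myeloid cells summed to 6.16 to 8.54 CPM in ipsilateral cortex at 6 h, 6.83 to 8.28 CPM in contralateral cortex and 4.96 to 9.82 CPM in sham cortex. At 24 h they reached 6.53 to 39.0 CPM in ipsilateral cortex, with 2 of 7 called higher. Markers of choroid plexus, a tissue outside the cortex, ran from 4.20 to 719 CPM between libraries and from 7.23 to 14.2 CPM in sham cortex, with no call. Oligodendrocyte precursor markers summed to 91.8 to 118 CPM in ipsilateral cortex at 6 h, 125 to 151 CPM in contralateral cortex and 126 to 174 CPM in sham cortex, with 2 of 6 called lower in ipsilateral cortex at 6 h and at 24 h. Endothelial markers summed to 87.2 to 115 CPM in ipsilateral cortex at 6 h, 72.9 to 103 CPM in contralateral cortex and 73.5 to 93.2 CPM in sham cortex. Of these 6, 1 was called higher and 1 lower in ipsilateral cortex at 6 h, 1 was higher at 12 h and 3 were at 24 h, and in contralateral cortex 1 was higher at 12 h and at 24 h. Mature oligodendrocyte markers had 1 of 6 called lower in ipsilateral cortex at 12 h and 3 at 24 h, markers of pericytes and smooth muscle 1 of 6 lower at both times, and interneuron markers 1 of 6 lower at 24 h. Markers of astrocytes, striatal neurons and meninges had no call. No marker was at 0 in every library of a group. The part of these markers in the results on the members was not tested.

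As a description of which genes had similar profiles, the 9 group means of each member were correlated with those of 10899 other genes. The points share the sham libraries and the times, and no p is given. For Dusp6 the highest were the early factors Egr1 and Egr2 (r = 0.957 each), and for Spry4 they were Osbpl2 (0.964) and Arc (0.954). Dusp1 was most like Gpr3 (0.922) and Junb (0.913), Dusp5 most like Sik1 (0.947) and Btg2 (0.937), and Dusp4 most like Zbtb38 (0.956) and Dlc1 (0.954). Spry1 was most like Dffb (0.971) and Nfatc2 (0.958), Spry2 most like Otud1 (0.98) and Pxk (0.979), and Rasl11b most like Kcnk3 (0.969) and Dyrk2 (0.96). Spred1 was most like Fam126b (0.987) and Srsf10 (0.985), and Spred2 most like Smug1 and Osbpl2 (0.937 each). After removal of the group means, r over the 27 libraries was lower for each of these pairs, from 0.0775 for Dusp5 and Btg2 to 0.831 for Spred1 and Fam126b. Among the members themselves the group means of Dusp4 and Dusp6 were the most alike (r = 0.978) and those of Spred1 and Dusp1 the least (r = 0.0866).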

How the data were processed

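Raw counts per gene were taken as deposited by the authors. Per the submitters' processing notes, the tools were STAR 2.5.0a for alignment to the mm10 build, featureCounts 1.4.3-p1 for counting, and edgeR. Which annotation and strand setting were used is not stated in these sources. The 27 libraries held 26.5 to 48.8 M counts. A filter on low counts (filterByExpr, at least 10 per library and 15 in total) took out genes with 0.0116% of all counts. After TMM normalization, edgeR 4.0.16 (R 4.3.3) fitted a quasi-likelihood model to all libraries with 1 mean per group, so that all 9 groups share the estimate of the spread. F-tests compared each stroke group with sham and the 4 times of a side with each other, with Benjamini-Hochberg adjustment over all 18087 genes and a threshold of 0.05. The procedure was also run on simulated data, with results not reported here. Fold changes are model estimates with SE, and CPM are given with SD.

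The members, the gene lists and the markers were chosen with earlier results of these data known. All members were named. Of each list, up to 4 called genes with the smallest p in ipsilateral cortex at 6 h and at 24 h were named; for each member the 2 genes of at least 5 CPM with the highest correlation over group means (logarithms with a prior count of 2). The series text states that replicates mark surgery days, so same-numbered libraries share a day. After removal of group means, same-numbered libraries of distinct groups had a mean correlation of 0.0475 (108 pairs, 31 over 0.1), and others -0.0237 (216 pairs, 15 over 0.1). The model without a block was kept, and the block was an alternative. The others were RLE size factors, no filter, a filter of 1 CPM in 3 libraries, abundant RNAs left out, DESeq2 1.42.0, the compared groups alone, and omission of each library. Omission of the 2 libraries that stood apart was added after the data were seen. Coordinates and exon lengths are from the mm10 annotation of GENCODE, and promoters from RefSeq. Dusp21, a listed gene, was not analysed here.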

Additional observations from a re-analysis of the deposited data

Results flagged for a closer look

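The ipsilateral level of 6 members differed between the 4 times, by an edgeR F-test over times, as did that of 13.0% of all genes. The adjusted p was 0.00136 for Spry1, 0.00965 for Spry2, 1.84e-05 for Spry4, 0.00435 for Dusp1, 0.00137 for Dusp6 and 1.65e-05 for Rasl11b. Spry4 passed the test against sham in both directions, lower at 3 h and higher at 6 h. Each of these calls was lost in 5 of the 6 omissions of a single library of those compared. The 6 h call was also lost with no filter on low counts.

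At 6 h every ipsilateral library was above and every contralateral library below every sham library for 4 members and for 1.18% of all genes. Of the 4, neither Spred2 nor Dusp4 was called against sham by edgeR, and ipsilateral and sham Spred2 lay close together. The log2 difference of ipsilateral minus contralateral cortex was 0.96 for Spry2, 1.35 for Spry4, 0.37 for Spred2 and 1.41 for Dusp4. This difference between the sides was not tested, since the members were chosen from it.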

How the results depend on the processing

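Of 1120 log2 fold changes of single members under the alternatives, 54 lost a call, 15 gained one and 25 changed sign, none of the last with a call in either fit. Of 400 tests of a member over times 11 gained a call and 0 lost one, and all 480 hemisphere differences moved by less than 1 SD. The counts of called genes and members moved by more than 1.5 times as follows, and the cause was not tested. In ipsilateral against sham cortex at 3, 6, 12 and 24 h, edgeR called 44, 1106, 1864 and 4008 genes and 2, 5, 4 and 0 members. In contralateral against sham cortex it called 2, 6, 43 and 20 genes and 1, 2, 4 and 0 members. Over times it called 166 genes and 0 members in contralateral cortex.

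The contralateral 3 h count was 4 genes with RLE size factors, 6 with no filter, 5 with a filter of 1 CPM and 5 with abundant RNAs left out. The ipsilateral count was 3 members at 6 h with no filter and 2 at 24 h with abundant RNAs left out. With the replicate block the counts were 1 member in ipsilateral cortex at 24 h, 6 genes in contralateral cortex at 3 h and 1 member over the contralateral times; beside the calls of Dusp6 and Dusp1 given above, it changed no other call of a member. DESeq2 called 173 genes at 3 h and 1 member at 24 h in ipsilateral cortex, and 34, 22, 145 and 64 genes at 3, 6, 12 and 24 h in contralateral cortex. It called 2 members there at 3 h, and 394 genes and 4 members over the contralateral times. When only the compared groups were fitted, 240 genes at 3 h, 2117 at 6 h and 3034 at 12 h were called in ipsilateral cortex. In contralateral cortex the counts were then 1, 27, 238 and 83 genes at the 4 times, 0 members at 3 h, and 53 genes over times with that side alone.

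Without both libraries that stood apart, 133, 2000 and 3185 genes were called in ipsilateral cortex at 3, 6 and 12 h. In contralateral cortex 1 gene was called at 3 h, 151 at 12 h, 59 at 24 h and 406 over times. At 24 h in ipsilateral cortex, uncalled members then changed sign, with log2 fold changes of 0.055 for Dusp4, 0.057 for Dusp5 and 0.081 for Rasl11b. With the filter of 1 CPM that of Dusp5 was 0.013.

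Omission of a single library leaves 2 in its group, whose spread is pooled with that of the other groups. In ipsilateral cortex it gave 0 to 1 member and 11 to 28 genes at 3 h, 2 to 6 members and 433 to 1233 genes at 6 h, 2 to 4 members and 757 to 1969 genes at 12 h, and 0 to 2 members and 2474 to 3234 genes at 24 h, the lowest without sham replicate 1. In contralateral cortex it gave 1 to 4 genes at 3 h, 0 to 2 members and 0 to 3 genes at 6 h, 1 to 4 members and 8 to 44 genes at 12 h, 1 to 19 genes at 24 h, and 0 to 2 members and 61 to 291 genes over times. Uncalled members that changed sign had these ranges of log2 fold change. In ipsilateral cortex at 3 h they were -0.12 to 0.080 for Spry2, -0.22 to 0.18 for Dusp1, -0.29 to 0.017 for Dusp4 and -0.34 to 0.17 for Dusp5. At 12 h they were -0.093 to 0.35 for Spry1, -0.031 to 0.29 for Dusp4, -0.35 to 0.17 for Dusp5 and -0.17 to 0.023 for Dusp6, and at 24 h -0.52 to 0.059 for Dusp4, -0.21 to 0.30 for Dusp5 and -0.25 to 0.085 for Rasl11b. In contralateral cortex the range was -0.018 to 0.17 for Spred1 at 12 h. At 24 h it was -0.071 to 0.11 for Spred1, -0.038 to 0.22 for Spry1, -0.041 to 0.20 for Spry2 and -0.45 to 0.058 for Dusp5. The lowest count of a member in any library was 152, and the number of 3 libraries a group limits every call.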
